A study of Homo sapiens with 238 samples.

Results

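Glycolysis turns glucose into pyruvate, and many of its enzymes are encoded by genes that cells raise when oxygen is scarce. The set described here holds 38 genes of 62696 in the annotation used by the authors: 19 that encode glucose transporters, glycolytic enzymes or the bifunctional enzymes that tune glycolysis, 3 that act on pyruvate (LDHA, LDHB and PDK1), and 16 that are not glycolytic and are known as targets of the hypoxia-inducible factors (HIFs). The genes were listed by name and found by matching gene identifiers to GENCODE symbols, and all 38 were found. RNA-seq counts of these genes were followed through 62 libraries from 12 lines of K562, a human leukaemia line of erythroid character that transcribes fetal and embryonic globin genes.

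Oxygen-sensing prolyl hydroxylases, of which EGLN1 and EGLN3 are members of the set, mark the alpha subunits of HIF for destruction through the VHL ubiquitin ligase. When oxygen falls the marking stops, HIF pairs with ARNT and binds short DNA elements near its targets, and transcription of glucose transporters, glycolytic enzymes, PDK1, VEGFA, CA9, BNIP3 and BNIP3L increases. In developing red cells BNIP3L helps to clear mitochondria, and mature red cells make their ATP by glycolysis alone.

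The study asked how DNA G-quadruplexes (G4s), multi-stranded structures of guanine-rich DNA, act within globin enhancers. Its α series holds αRes1, αRes2, αRes3 and αRes4 (8, 8, 4 and 4 libraries), αMut1 and αMut2 (7 and 4) and αWT (8). Its β series holds βMut-HS3Δ (3), WT-HS3Δ (4), βMut1 and βMut2 (4 each) and βWT (4). All lines are K562 edited with CRISPR-Cas9 or left unedited, with no drug or other treatment named. In αMut1 and αMut2 the G4 motif of the α-globin enhancer HS-40 is mutated on all alleles, and the αRes lines were made from αMut1 by inserting a G4 of unrelated sequence into that enhancer. In βMut1 and βMut2 the G4 of the β-globin enhancer HS2 is mutated, WT-HS3Δ lacks the neighbouring enhancer HS3, and βMut-HS3Δ carries both changes. Each edited line is 1 clone, so the libraries of a line are repeat samples of that clone, and the effect of an edit cannot be told apart from other properties of the clone it was made in.

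Libraries held 4270215 to 48671570 reads counted on genes. Levels are given as CPM, that is counts brought to an equal library size, scaled by the trimmed mean of M values (TMM) over all 62 libraries. All libraries showed the erythroid markers of K562, with GATA1 at 193 to 362 CPM, and of the 12 markers of B cells, fibroblasts, endothelium and epithelium, MS4A1, CD79A, DCN, CDH5, KDR, KRT5 and CDH1 stayed under 1 CPM in every library. The 3 fibroblast markers summed to 31.3 to 46.2 CPM in βMut-HS3Δ, 6.83 to 8.50 CPM in WT-HS3Δ and 2.99 to 5.49 CPM in βWT. In the α series they summed to 47.4 to 48.6 CPM in αRes3, 4.54 to 55.7 in αRes1, 6.36 to 21.9 in αMut1, 18.3 to 21.3 in αRes4 and 3.53 to 6.17 in αWT. αMut2, αRes2, βMut1 and βMut2 had at most 6.97 CPM. Among single markers COL1A1 reached 54.7 and COL1A2 45.2 CPM, with the fibroblast marker DCN at most 0.474 CPM anywhere. The 3 endothelial markers, almost all PECAM1, summed to 15.4 to 17.2 CPM in WT-HS3Δ and 27.5 to 30.2 CPM in βWT. The 3 epithelial markers, almost all EPCAM, summed to 146 to 156 CPM in WT-HS3Δ and 93.3 to 108 CPM in βWT. The part of these genes in the results was not tested. In the α series, libraries numbered 1 to 4 and 5 to 8 in the labels differed. Over the 3000 most variable genes the mean correlation between the αMut1 libraries numbered 5 to 7 and 1 to 4 was -0.18 (12 library pairs), while αMut1 numbers 5 to 7 stood at 0.53 with αRes1 numbers 1 to 4, and αMut1 numbers 1 to 4 stood at 0.42 with αRes1 numbers 5 to 8. These pairs share the genes chosen and the series mean. Results of the α lines are therefore given for each set of numbers as well as over both. A further difference lay in how reads were placed. Reads were summed over 5 pseudoautosomal genes, without their separately annotated Y copies. All αRes3 and αRes4 libraries and numbers 5 to 8 of αRes1 and αRes2 had 4820 to 20357 such reads. Every other library, αMut1 and αWT included, had at most 1. What differed in their alignment or counting is not given in the sources used here. No member lies there, but in each comparison of αRes3 or αRes4 this difference and the line cannot be told apart. The same holds for αRes1 and αRes2 against αMut1 or αWT within numbers 5 to 8, and in part over both sets. αRes3 and αRes4 are numbered 1 to 4 but shared this trait with numbers 5 to 8 of αRes1 and αRes2. Which set of the other lines matches them is not known.

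The HIF-bound element has the core ACGTG, or in some targets GCGTG. These letters were sought on both strands, where ACGTG reads as CACGT on the strand opposite and GCGTG reads as CACGC, and were present in 41 of 59 promoter windows of the members (69.5%), against 48.4% of all 35116 windows of the same length. The palindrome CACGTG holds a match on each strand and counts as 2 matches. Windows run from 250 bases before to 50 after a RefSeq start (GRCh38.p14), and 34 of the 38 members had at least 1. Of these, 23 had exactly 1, and members with several windows count more than once. VEGFA, SLC2A3, NDRG1 and BNIP3L had no window. A match is a description of letters and not a bound site. The first set shows 3 members that fell in both HS3-deleted lines, with the matches in capitals: CA9, chr9:35673678-35673977 (+ strand), ALDOC, chr17:28576846-28577145 (- strand), and BNIP3, chr10:131981874-131982173 (- strand).
CA9: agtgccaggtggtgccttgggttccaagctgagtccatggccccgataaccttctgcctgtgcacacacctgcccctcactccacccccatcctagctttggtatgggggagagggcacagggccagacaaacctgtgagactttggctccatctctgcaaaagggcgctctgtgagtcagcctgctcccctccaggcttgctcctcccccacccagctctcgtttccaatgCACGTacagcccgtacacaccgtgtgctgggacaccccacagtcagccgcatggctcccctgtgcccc
ALDOC: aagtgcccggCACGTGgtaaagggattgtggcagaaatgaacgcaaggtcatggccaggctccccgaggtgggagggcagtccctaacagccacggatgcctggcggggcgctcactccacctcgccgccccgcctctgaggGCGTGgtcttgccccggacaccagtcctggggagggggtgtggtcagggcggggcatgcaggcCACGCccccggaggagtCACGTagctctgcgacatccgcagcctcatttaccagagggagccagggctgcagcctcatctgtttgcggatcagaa
BNIP3: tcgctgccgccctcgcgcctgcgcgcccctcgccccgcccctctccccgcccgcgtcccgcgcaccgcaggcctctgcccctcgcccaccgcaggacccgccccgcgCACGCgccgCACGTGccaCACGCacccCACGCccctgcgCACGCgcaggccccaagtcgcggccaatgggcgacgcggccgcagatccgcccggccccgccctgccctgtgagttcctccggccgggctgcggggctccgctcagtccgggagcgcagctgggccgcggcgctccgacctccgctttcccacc
The second set shows 2 glycolytic enzyme genes whose level did not pass the test in either deletion, also with the matches in capitals: GAPDH, chr12:6535014-6535313 (+ strand), and ENO1, chr1:8878637-8878936 (- strand).
GAPDH: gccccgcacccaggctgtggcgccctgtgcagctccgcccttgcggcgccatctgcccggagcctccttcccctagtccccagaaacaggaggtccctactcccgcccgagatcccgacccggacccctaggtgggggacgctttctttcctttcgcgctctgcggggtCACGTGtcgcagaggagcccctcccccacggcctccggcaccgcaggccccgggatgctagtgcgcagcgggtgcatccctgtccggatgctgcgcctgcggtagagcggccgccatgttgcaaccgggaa
ENO1: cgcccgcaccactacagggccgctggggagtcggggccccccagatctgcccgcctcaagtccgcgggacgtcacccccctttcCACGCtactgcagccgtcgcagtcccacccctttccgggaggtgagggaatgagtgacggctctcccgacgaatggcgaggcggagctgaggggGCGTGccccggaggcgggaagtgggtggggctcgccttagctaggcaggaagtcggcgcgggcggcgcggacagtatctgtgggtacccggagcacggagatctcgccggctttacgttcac
Each of the 5 windows held at least 1 match, with 1 in CA9, 5 in ALDOC, 6 in BNIP3, 2 in GAPDH and 2 in ENO1. These are examples, and P4HA2, which also fell in both HS3-deleted lines, had 0 matches in its window.

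Levels per kilobase of exon spread widely within the set. In βWT, GAPDH (glyceraldehyde-3-phosphate dehydrogenase) had 606 CPM per kb and ENO1 (the common enolase) 515 CPM per kb, followed by LDHA at 238 and PGK1 at 180.0 CPM per kb. At the low end, CA9, a membrane carbonic anhydrase, had 4.41 CPM per kb in βWT. NDRG1, a stress-responsive gene, had 0.673, ANGPTL4, a secreted inhibitor of lipoprotein lipase, 0.351, and ADM, the peptide adrenomedullin, 0.197 CPM per kb. The length used was that of all annotated exons together, 12002 bases for NDRG1 and 1598 for CA9, and the order depends on it. Before this division the βWT means were 8.08 CPM for NDRG1 and 7.05 CPM for CA9. Abundant enzymes carried most of the reads of the set. On the chromosomes of the edited enhancers lie LDHA and ADM (chromosome 11, with the β-globin cluster) and ALDOA (chromosome 16, with HS-40), and the other 35 members lie elsewhere.

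**Figure D1:**
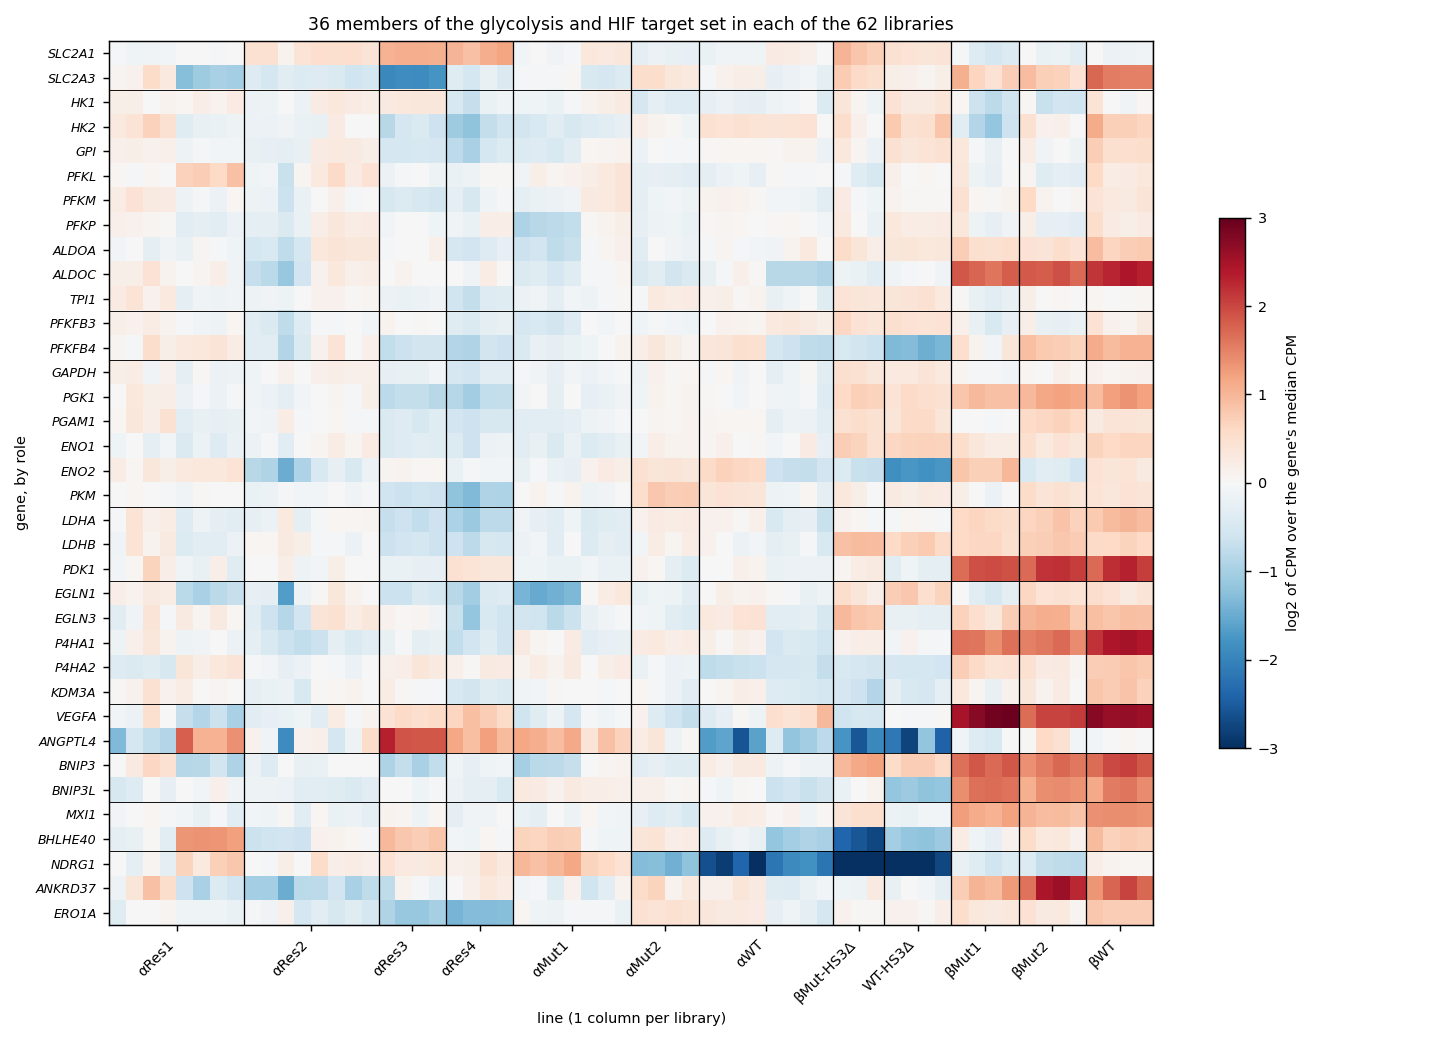
Heat map of 36 members (rows, grouped by role) in each of the 62 libraries (columns, grouped by line), coloured by log2 of CPM over the gene's median CPM across libraries; colours saturate at 3 on this scale, and ADM and CA9 are left out because some libraries hold 0 counts. VEGFA, PDK1, P4HA1 and ALDOC are red in βMut1, βMut2 and βWT and near or below the median in the HS3-deleted and α lines.

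Some of the members, but not all, separated the β lines with HS3 deleted from those with HS3 intact. In 17 of 37 tested members every library of the HS3-deleted lines (7 libraries) lay below every library of the β lines with HS3 intact (12 libraries), against 16.0% of the 17535 genes tested. In 3 members (SLC2A1, TPI1 and GAPDH) every HS3-deleted library lay above, against 13.6% of genes. The α lines, which have HS3, were also low: in 11 of the 37 members all 43 α libraries lay below all 12 libraries of βMut1, βMut2 and βWT, against 6.96% of genes. Those 11 were ALDOC, PGK1, LDHA, LDHB, PDK1, P4HA1, VEGFA, BNIP3, BNIP3L, MXI1 and CA9.

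Deletion of HS3 alone went with a lower level of most HIF targets of the set, while most glycolytic enzyme genes did not pass the test. In WT-HS3Δ against βWT, 21 of 37 tested members fell and 1 rose (adjusted p below 0.05 and a log2 fold change beyond 0.5), where 27.5% of all tested genes fell and 22.8% rose. By role, 14 of the 15 tested HIF targets outside glycolysis fell, against 7 of 22 glycolysis and pyruvate genes. The median log2 fold change of the members was -0.87, against -0.03 over all genes. In bulk RNA, fewer cells of a kind and less RNA per cell cannot be told apart.

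CA9, on chromosome 9 (35673928 to 35681159), showed the widest difference among the members. Its raw counts were 0, 0, 0 and 1 in the WT-HS3Δ libraries, against 196, 206, 201 and 180 in the βWT libraries. After scaling for depth, CA9 was 924-fold lower in WT-HS3Δ than in βWT, with a 95% exact (Clopper-Pearson) interval of 165 to 36532 that covers counting error only. VEGFA, the main angiogenic growth factor, on chromosome 6 (43770184 to 43786487, annotation on hg38), had 79.2, 75.6, 75.5 and 80.9 CPM in WT-HS3Δ, against 528, 487, 489 and 468 CPM in βWT (log2 fold change -2.61 ± 0.10 SE, edgeR adjusted p = 9.57e-14). The 2 lines did not overlap for either gene. NDRG1 had 0.708, 0.666, 0.796 and 1.14 CPM in WT-HS3Δ, against 8.62, 8.06, 7.83 and 7.81 CPM in βWT (log2 fold change -3.24 ± 0.14 SE, edgeR adjusted p = 1.96e-13).

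BNIP3L, the mitophagy receptor named above, had 40.9, 42.7, 39.7 and 40.6 CPM in WT-HS3Δ, against 199.8, 266, 276 and 244 CPM in βWT (log2 fold change -2.54 ± 0.11 SE, edgeR adjusted p = 1.57e-13). Its relative BNIP3 fell less, with a log2 fold change of -1.19. Both collagen prolyl 4-hydroxylase subunits fell, P4HA1 with 55.5, 63.9, 55.9 and 57.1 CPM in WT-HS3Δ against 264, 314, 332 and 308 CPM in βWT (log2 fold change -2.34 ± 0.08 SE, edgeR adjusted p = 1.89e-14), and P4HA2 by 1.26 on the log2 scale. KDM3A, a histone demethylase that needs oxygen, changed by -1.11 in log2 and EGLN3 by -1.08, whereas EGLN1 had a log2 fold change of 0.33 and did not pass. Among the remaining HIF targets ANGPTL4 (-1.91), the repressor BHLHE40 (-1.84), ANKRD37 (-1.83), the MYC antagonist MXI1 (-1.46) and the endoplasmic reticulum oxidase ERO1A (-0.59) fell, all as log2 fold changes. Tested genes within 5 Mb of MXI1 had a median log2 fold change of -0.37 in the same comparison.

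Among the glycolysis and pyruvate genes, ALDOC, ENO2, PFKFB4, PDK1, LDHA, PGK1 and SLC2A3 fell. ALDOC, the brain-type aldolase, had 77.3, 80.6, 82.7 and 76.7 CPM in WT-HS3Δ, against 369, 401, 445 and 415 CPM in βWT (log2 fold change -2.31 ± 0.07 SE, edgeR adjusted p = 5.63e-15), while the common aldolase ALDOA had a log2 fold change of -0.38 and did not pass. ENO2, the neuronal-type enolase, had 8.59, 9.13, 8.72 and 9.18 CPM in WT-HS3Δ, against 41.3, 39.1, 40.9 and 36.7 CPM in βWT (log2 fold change -2.10 ± 0.09 SE, edgeR adjusted p = 2.05e-13), and ENO1 had 0.08 in log2. In each of these pairs the tissue-restricted isoenzyme fell and the common isoenzyme did not pass the test.
PFKFB4, which makes and breaks the phosphofructokinase activator fructose 2,6-bisphosphate, had 13.3, 13.5, 12.0 and 12.8 CPM in WT-HS3Δ, against 71.9, 64.5, 68.6 and 69.3 CPM in βWT (log2 fold change -2.36 ± 0.10 SE, edgeR adjusted p = 2.97e-13), and its relative PFKFB3 had a log2 fold change of 0.25. PDK1, the kinase that inactivates pyruvate dehydrogenase, had 24.4, 28.0, 25.1 and 25.4 CPM in WT-HS3Δ, against 99.2, 140.1, 152 and 128 CPM in βWT (log2 fold change -2.28 ± 0.12 SE, edgeR adjusted p = 5.63e-12). LDHA, which reduces pyruvate to lactate, changed by -0.87 in log2, PGK1 (phosphoglycerate kinase) by -0.63 and the glucose transporter SLC2A3 by -1.37.
SLC2A1, the other glucose transporter of the set, was the single member that rose, with 352, 341, 330.2 and 337 CPM in WT-HS3Δ, against 258, 226, 232 and 239 CPM in βWT (log2 fold change 0.56 ± 0.09 SE, edgeR adjusted p = 2.32e-05). The 2 transporters thus moved in opposite directions. HK1, HK2, GPI, PFKL, PFKM, PFKP, TPI1, GAPDH, PGAM1, PKM and LDHB had log2 fold changes between -0.25 and 0.39, none past the thresholds. All 22 calls of this comparison held when any 1 of the 8 libraries was left out.

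**Figure D2:**
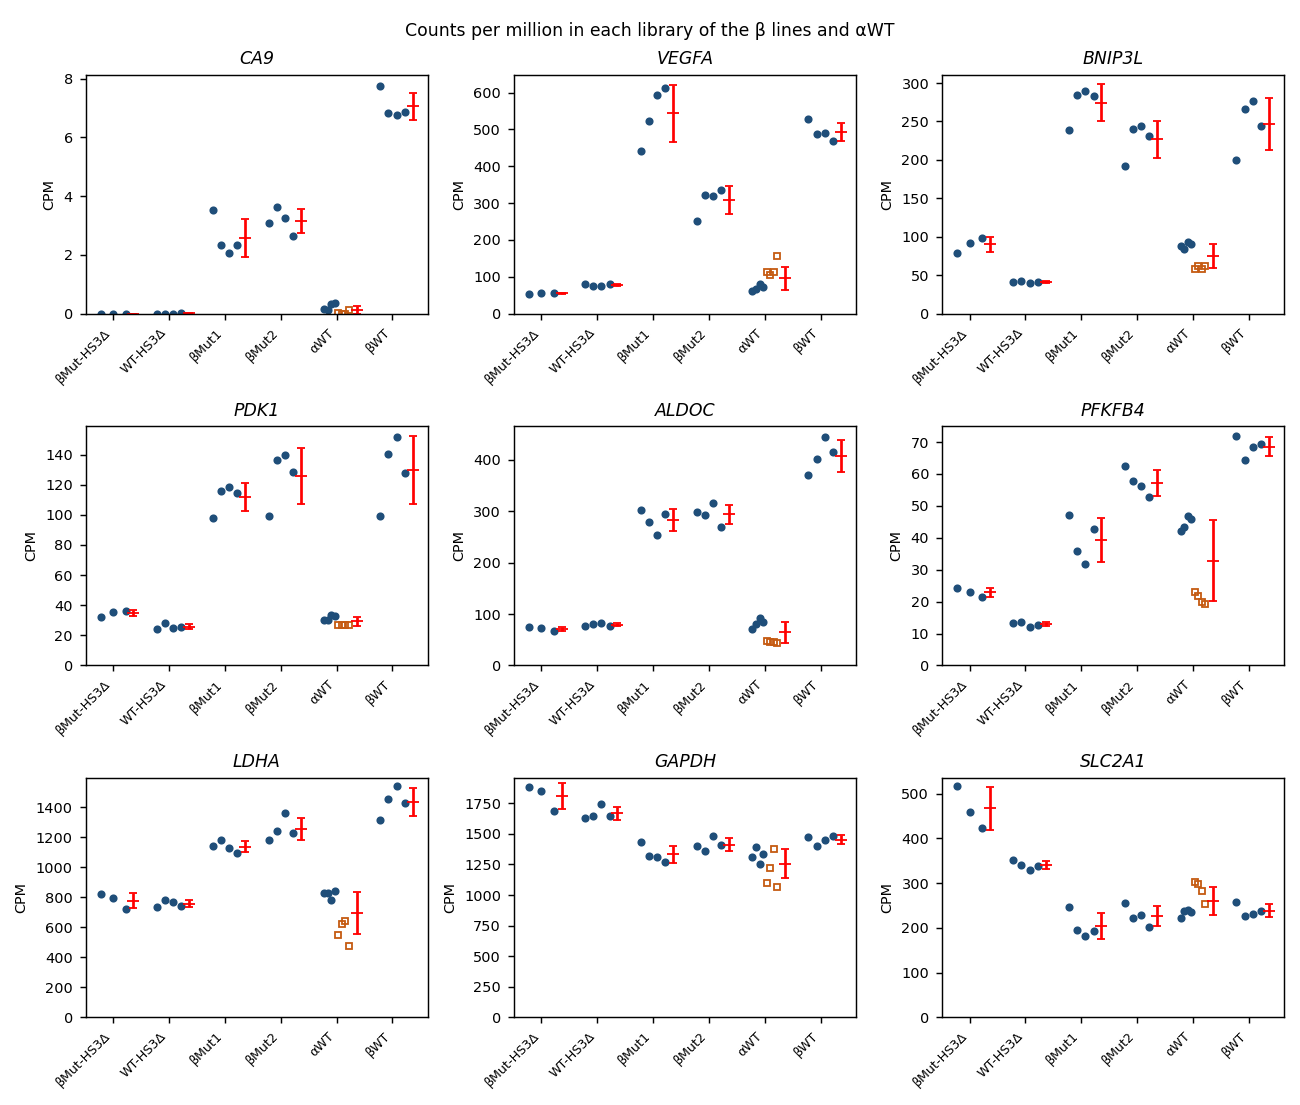
CPM (y axis, from 0) of 9 members in each library of βMut-HS3Δ, WT-HS3Δ, βMut1, βMut2, αWT and βWT (circles stand for libraries numbered 1 to 4, squares for αWT numbers 5 to 8, and red bars for the mean ± SD). CA9, VEGFA, BNIP3L, PDK1, ALDOC, PFKFB4 and LDHA lie lower in both HS3-deleted lines than in βMut1, βMut2 and βWT, and SLC2A1 lies higher.

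The same question was put on the HS2 G4-mutant background, with βMut-HS3Δ against βMut1. Here 17 of 37 members fell and 6 rose, where 29.8% of all genes fell and 23.1% rose, and the median log2 fold change was -0.28, against -0.06 over all genes. HIF targets outside glycolysis fell in 12 of 15 cases and rose in 1. The glycolysis and pyruvate genes fell in 5 of 22 and rose in 5.

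VEGFA had 52.5, 56.6 and 56.1 CPM in βMut-HS3Δ, against 443, 524, 593 and 614 CPM in βMut1 (log2 fold change -3.32 ± 0.12 SE, edgeR adjusted p = 3.54e-14). BHLHE40 had 32.9, 28.7 and 25.8 CPM in βMut-HS3Δ, against 199, 156, 144 and 187 CPM in βMut1 (log2 fold change -2.57 ± 0.13 SE, edgeR adjusted p = 2.73e-12), and tested genes within 5 Mb of it had a median log2 fold change of -0.44. CA9 had 0 counts in the 3 βMut-HS3Δ libraries and 87, 63, 55 and 70 counts in βMut1, which makes it at least 79.0-fold lower with a floor of 3 counts over the 3 libraries. All 3 genes were lower in every βMut-HS3Δ library than in any βMut1 library.
ALDOC had 74.9, 72.7 and 66.5 CPM in βMut-HS3Δ, against 302, 279, 253 and 294 CPM in βMut1 (edgeR adjusted p = 1.87e-13). BNIP3L had 79.0, 92.5 and 98.6 CPM in βMut-HS3Δ, against 239, 285, 290.2 and 284 CPM in βMut1 (log2 fold change -1.63 ± 0.11 SE, edgeR adjusted p = 2.42e-10). Both genes had at most 0.5 of the lowest βMut1 level in every βMut-HS3Δ library. NDRG1 (-2.77), ANGPTL4 (-1.80), PDK1 (-1.70) and ENO2 (-1.42) followed, as log2 fold changes. P4HA1 changed by -1.41 and LDHA by -0.56 in log2, with tested genes within 5 Mb at medians of -0.33 and -0.43. The LDHA call ended without βMut-HS3Δ replicate 3, at -0.4996 against the limit of 0.5.

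SLC2A1 rose more on this background, with 517, 459.6 and 424 CPM in βMut-HS3Δ, against 247, 195, 181 and 194 CPM in βMut1 (log2 fold change 1.18 ± 0.10 SE, edgeR adjusted p = 3.32e-09). HK2, the inducible hexokinase, had 109.8, 85.0 and 75.6 CPM in βMut-HS3Δ, against 59.9, 41.8, 33.9 and 50.0 CPM in βMut1 (log2 fold change 0.95 ± 0.18 SE, edgeR adjusted p = 9.94e-05). PFKFB3 (0.64), EGLN1 (0.63), HK1 (0.55) and TPI1 (0.53) also rose in log2. EGLN1 is a hydroxylase, and HK1 and TPI1 encode a hexokinase and the triose phosphate isomerase. HK1 lost its call without βMut1 replicate 2 (0.49), βMut1 replicate 3 (0.45) or βMut-HS3Δ replicate 1 (0.39), and TPI1 without βMut1 replicate 3 (0.49) or βMut-HS3Δ replicate 1 (0.4982), all as log2 fold changes.

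**Figure D3:**
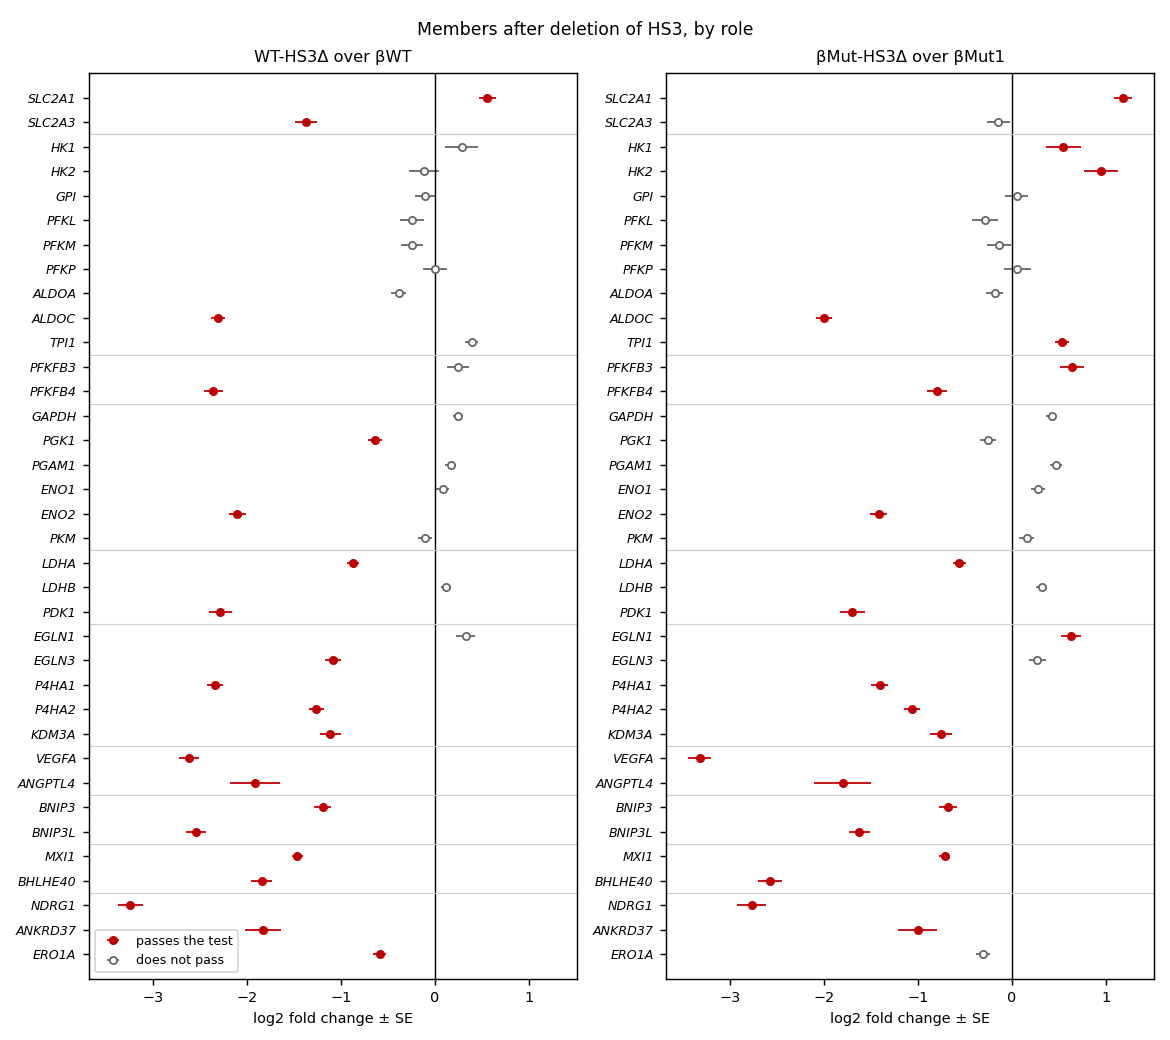
Log2 fold change ± SE of 36 tested members (rows, grouped by role) in WT-HS3Δ over βWT (left) and βMut-HS3Δ over βMut1 (right); filled red points pass the test, open points do not. CA9 is left out because the HS3-deleted lines hold at most 1 count. VEGFA, NDRG1, ALDOC, PDK1 and ENO2 lie left of 0 in both panels and SLC2A1 right of 0.

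An interaction was tested as the log2 fold change of βMut-HS3Δ over βMut1 minus that of WT-HS3Δ over βWT. Each edited line in it is 1 clone, so an effect of either edit cannot be told apart from the clone. The interaction passed for 14 of 37 members, 12 positive and 2 negative, where 5.18% of all genes were positive and 6.88% negative. A positive value means a smaller fall, or a larger rise, on the mutant background. The largest was PFKFB4 (log2 fold change 1.56 ± 0.14 SE, edgeR adjusted p = 2.75e-07), followed by EGLN3 (log2 fold change 1.35 ± 0.12 SE, edgeR adjusted p = 2.66e-07) and SLC2A3 (log2 fold change 1.23 ± 0.17 SE, edgeR adjusted p = 3.15e-05). HK2 stood at 1.06, P4HA1 at 0.93, BNIP3L at 0.91, MXI1 at 0.75, ENO2 at 0.68 and SLC2A1 at 0.62. VEGFA (-0.71) and BHLHE40 (-0.73) were negative, so these 2 fell further on the mutant background. ANKRD37 (0.82), PDK1 (0.58) and BNIP3 (0.51) passed less firmly. ANKRD37 lost the call without any 1 of βMut-HS3Δ replicates 1 and 3, WT-HS3Δ replicates 1, 3 and 4, βMut1 replicates 2 and 3 or βWT replicates 2 and 3 (down to 0.68), PDK1 without βMut-HS3Δ replicate 3 or βWT replicates 2 and 3 (down to 0.4985), and BNIP3 without βMut-HS3Δ replicate 3, WT-HS3Δ replicates 1 and 4, βMut1 replicate 3 or βWT replicates 2 and 3 (down to 0.46).

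Between the 2 HS3-deleted lines the differences were fewer. In βMut-HS3Δ against WT-HS3Δ 5 of 37 members rose and 2 fell, where 7.33% of all genes rose and 8.99% fell. ENO2 had 23.0, 19.2 and 18.9 CPM in βMut-HS3Δ, against 8.59, 9.13, 8.72 and 9.18 CPM in WT-HS3Δ (log2 fold change 1.15 ± 0.09 SE, edgeR adjusted p = 1.50e-08). BNIP3L (1.09), EGLN3 (1.07), PFKFB4 (0.78) and MXI1 (0.54) also rose in log2. BHLHE40 had 32.9, 28.7 and 25.8 CPM in βMut-HS3Δ, against 84.6, 76.9, 74.1 and 80.0 CPM in WT-HS3Δ (log2 fold change -1.48 ± 0.12 SE, edgeR adjusted p = 2.21e-08), and VEGFA fell by 0.54 on the log2 scale. All 7 calls held without any 1 library.

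With HS3 intact, mutation of the HS2 G4 went with moderately lower levels. In βMut1 against βWT 12 of 37 members fell and none rose, where 7.28% of all genes fell and 13.0% rose. In βMut2 against βWT 12 fell and 1 rose, where 13.7% of all genes fell and 15.0% rose. The median log2 fold changes of the members were -0.31 in βMut1 and -0.33 in βMut2, against 0.02 and 0.00 over all genes. Beside the count of 0 higher in βMut1, 29 members had an unadjusted edgeR p under 0.05 in either direction and DESeq2 called 0 higher and 13 lower. Both comparisons use the same 4 βWT libraries, so they are not independent.

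CA9 had 3.53, 2.35, 2.05 and 2.34 CPM in βMut1 and 3.09, 3.63, 3.25 and 2.65 CPM in βMut2, against 7.75, 6.83, 6.75 and 6.86 CPM in βWT (log2 fold change -1.44 with edgeR adjusted p = 2.70e-06 in βMut1, and -1.15 with edgeR adjusted p = 8.22e-06 in βMut2). P4HA1 had 181, 178, 153 and 184 CPM in βMut1 and 166, 175, 189.6 and 156 CPM in βMut2, against 264, 314, 332 and 308 CPM in βWT (-0.78 and -0.82 in log2). SLC2A3 had 293, 217, 187 and 231 CPM in βMut1 and 265, 226, 225 and 189 CPM in βMut2, against 455, 400.4, 399 and 398 CPM in βWT (-0.81 and -0.86 in log2). For these 3 genes neither mutant line overlapped βWT.
KDM3A fell in both lines as well (log2 fold change -0.68 in βMut1 and -0.60 in βMut2), as did HK2 (-1.50 and -0.61), GPI, the isomerase after hexokinase (-0.53 and -0.57), and HK1 (-0.53 and -0.53). The HK1 call ended without any 1 of βMut1 replicates 2, 3 and 4 or βWT replicate 1 in the first comparison (down to -0.41) and βMut2 replicates 2, 3 and 4 or βWT replicate 1 in the second (down to -0.40). Without βWT replicate 1 the calls of GPI in βMut1 (-0.46) and of HK2 (-0.49) and PFKL (-0.46) in βMut2 also ended, and GPI in βMut1 ended without βMut1 replicate 3 (-0.46).

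The 2 mutant clones differed at other members. ENO2 had 54.2, 50.5, 50.2 and 60.8 CPM in βMut1 and 22.3, 24.5, 23.6 and 20.7 CPM in βMut2, against 41.3, 39.1, 40.9 and 36.7 CPM in βWT, and passed as lower in βMut2 only (log2 fold change -0.79, against 0.47 in βMut1). VEGFA had 443, 524, 593 and 614 CPM in βMut1 and 252, 323, 321 and 337 CPM in βMut2, against 528, 487, 489 and 468 CPM in βWT, and passed as lower in βMut2 (-0.68) with 0.16 in βMut1. ANKRD37 had 7.79, 9.40, 8.93 and 11.2 CPM in βMut1 and 14.3, 25.6, 27.4 and 22.4 CPM in βMut2, against 11.6, 15.6, 19.0 and 15.4 CPM in βWT. For ENO2, VEGFA and ANKRD37 the libraries of βMut1 and βMut2 did not overlap, and the difference between the clones was not tested.
In log2, ANKRD37 passed in opposite directions, lower in βMut1 (-0.70) and higher in βMut2 (0.54), and the βMut2 call ended without βMut2 replicate 2 (0.44), βMut2 replicate 3 (0.40) or βWT replicate 1 (0.43). PFKFB4 (-0.78), BHLHE40 (-0.75), EGLN1 (-0.66) and ALDOC (-0.51) passed in βMut1, and NDRG1 (-0.74), PFKL (-0.56) and P4HA2 (-0.51) in βMut2. ALDOC ended without βMut1 replicate 3 (-0.47) or βWT replicate 3 (-0.47), and P4HA2 without βMut2 replicate 4 (-0.48) or βWT replicate 3 (-0.49).

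**Figure D4:**
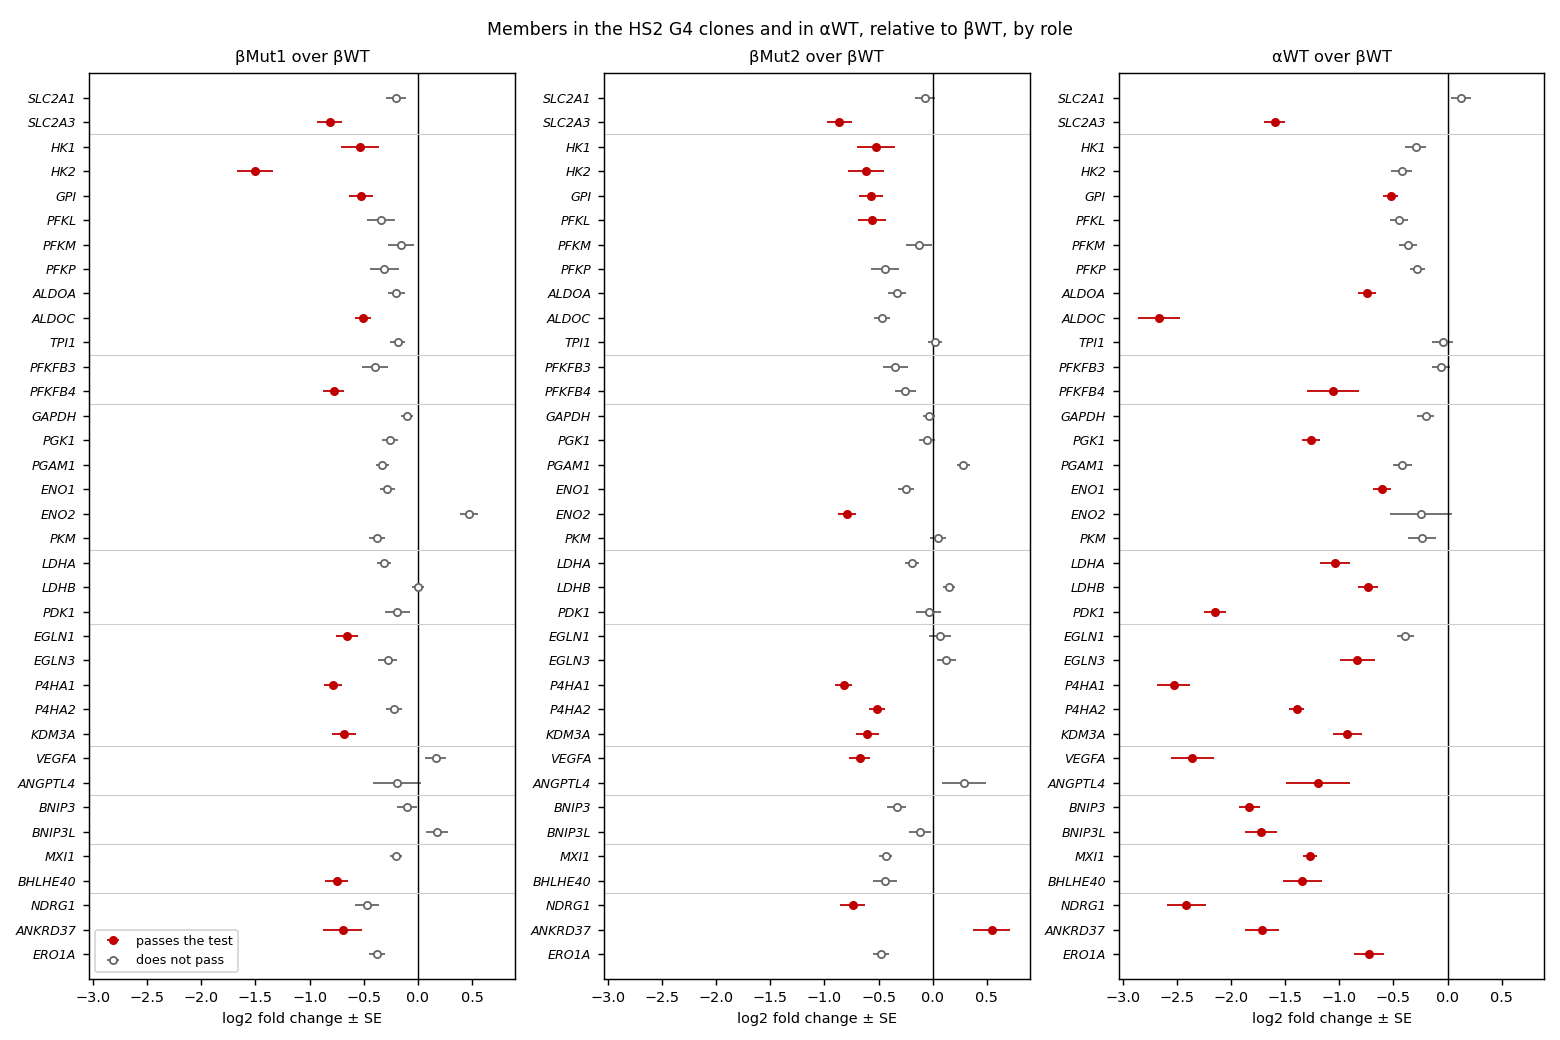
Log2 fold change ± SE of 36 tested members (rows, grouped by role) in βMut1, βMut2 and αWT, each over βWT; filled red points pass the test, open points do not, and CA9 is left out to keep 1 scale. Most points of βMut1 and βMut2 lie between -1 and 0.5, while ALDOC, P4HA1, NDRG1, VEGFA and PDK1 lie beyond -2 in αWT.

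The 2 unedited lines did not share a level of the set. In αWT against βWT 24 of 37 members were lower and none was higher, where 23.1% of all genes were lower and 25.0% higher, and 1 member had a log2 fold change above 0. At an unadjusted edgeR p under 0.05 32 members differed, and DESeq2 called 0 higher and 24 lower. All but EGLN1 of the 15 tested HIF targets outside glycolysis were lower (14), with 10 of 22 glycolysis and pyruvate genes. ALDOC had a lowest of 44.1, a median of 59.2 and a highest of 92.3 CPM in αWT, against 369, 401, 445 and 415 CPM in βWT (log2 fold change -2.66 ± 0.19 SE, edgeR adjusted p = 3.37e-08). P4HA1 had a lowest of 38.5, a median of 51.5 and a highest of 66.3 CPM in αWT, against 264, 314, 332 and 308 CPM in βWT (log2 fold change -2.53 ± 0.15 SE, edgeR adjusted p = 5.67e-09). PDK1 had a lowest of 26.6, a median of 28.6 and a highest of 33.7 CPM in αWT, against 99.2, 140.1, 152 and 128 CPM in βWT (log2 fold change -2.14 ± 0.10 SE, edgeR adjusted p = 4.43e-10). No αWT library reached the lowest βWT library for these 3 genes.

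CA9 had a lowest of 0, a median of 0.114 and a highest of 0.349 CPM in αWT, against 7.75, 6.83, 6.75 and 6.86 CPM in βWT, on 37 counts in the 8 αWT libraries. NDRG1 (-2.41), VEGFA (-2.36), BNIP3 (-1.83), BNIP3L (-1.72) and SLC2A3 (-1.60) were also lower in log2. PGK1 (-1.26), LDHA (-1.04), LDHB (-0.74), ALDOA (-0.74) and ENO1 (-0.60) were among the core enzymes that were lower. GPI (-0.52) lost its call without αWT replicate 8 (-0.49) or βWT replicate 1 (-0.47). With αWT numbers 1 to 4 alone 24 members were lower, against 25.4% of all genes, and with numbers 5 to 8 alone 27, against 25.3%. ENO2 (-1.003), PGAM1 (-0.57) and PKM (-0.51) passed with numbers 5 to 8 alone and not with 1 to 4 (0.26, -0.27 and 0.00) or with all 8, and ERO1A (-0.72 with all 8) did not pass with numbers 1 to 4 (-0.47). The lines come from separate series, and series cannot be told apart from line.

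Further lists, chosen with earlier results of these data known, were counted beside the members. Of 31 tested further HIF targets, 15 fell and 3 rose in WT-HS3Δ against βWT (median log2 fold change -0.48), where 27.5% of all genes fell and 22.8% rose. In βMut-HS3Δ against βMut1 13 fell and 3 rose (median -0.30), where 29.8% of all genes fell and 23.1% rose, and in αWT against βWT 16 were lower and 3 higher (median -0.66), where 23.1% of all genes were lower and 25.0% higher. DDIT4, an inhibitor of mTOR signalling, had log2 fold changes of -3.65 (edgeR adjusted p = 6.74e-19) in WT-HS3Δ and -4.20 (edgeR adjusted p = 5.39e-11) in αWT, each over βWT. CCNG2, an atypical cyclin, had -3.72 in WT-HS3Δ and -2.29 in αWT. The further targets and the members both had medians below those of all genes in these 3 comparisons.

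Of 14 tested genes that regulate HIF, 6 rose and 2 fell in WT-HS3Δ, where 22.8% of all genes rose and 27.5% fell, and 4 were higher and 1 lower in αWT, where 25.0% of all genes were higher and 23.1% lower, each over βWT. HIF1A had log2 fold changes of -0.04 in WT-HS3Δ and 0.07 in αWT and passed in neither. EPAS1, another HIF alpha subunit, fell in WT-HS3Δ (-1.47, edgeR adjusted p = 6.42e-09) and in βMut-HS3Δ over βMut1 (-2.46), but in αWT over βWT had 0.33 and did not pass. VHL, part of the ligase that marks HIF for destruction, was lower in WT-HS3Δ (-1.22), in βMut-HS3Δ over βMut1 (-1.86) and in αWT (-0.56). Messenger RNA levels of these regulators say nothing of HIF protein, which was not measured.

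The lactate exporter SLC16A3 of the list of further glycolysis and lactate genes fell in WT-HS3Δ (-1.29) and in βMut-HS3Δ over βMut1 (-2.58) and was lower in αWT (-1.34). That list as a whole had 4 of 20 tested genes higher and 7 lower in WT-HS3Δ. Of the pyruvate dehydrogenase complex and its kinases 1 of 9 rose and 2 fell, PDK3 among those that fell at -3.35. Of 8 pentose phosphate genes 2 rose and 2 fell. Over all genes 22.8% rose and 27.5% fell in that comparison.

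Among unedited α cells the 2 sets of numbers already differed. In αWT numbers 5 to 8 against 1 to 4, 12 of 36 tested members were lower and 3 higher, where 9.99% of all genes were lower and 15.6% higher. ENO2 had 20.0, 18.9, 18.5 and 20.7 CPM in numbers 5 to 8, against 45.7, 49.5, 46.9 and 45.9 CPM in numbers 1 to 4 (log2 fold change -1.28 ± 0.07 SE, edgeR adjusted p = 1.01e-18). PFKFB4 (-1.09), ALDOC (-0.85), BHLHE40 (-0.80), EGLN3 (-0.71) and P4HA1 (-0.66) were lower too, and ANGPTL4 (1.06), VEGFA (0.78) and NDRG1 (0.63) higher, in log2. Calls near the limit ended when a library was left out, PKM and LDHA without αWT replicate 8 (-0.48 and -0.45) and ANKRD37 without αWT replicate 3, 5 or 6 (-0.47, -0.47 and -0.48).

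In αMut1 the direction was another. Numbers 5 to 7 against 1 to 4 had 6 of 36 members higher and 1 lower, where 13.7% of all genes were higher and 15.4% lower. EGLN1 had 22.4, 25.7 and 27.6 CPM in numbers 5 to 7, against 8.33, 7.72, 8.06 and 8.71 CPM in numbers 1 to 4 (log2 fold change 1.63 ± 0.13 SE, edgeR adjusted p = 7.24e-14). PFKP (0.95), BNIP3 (0.88), ALDOA (0.74), EGLN3 (0.54) and PFKM (0.52) were also higher, and BHLHE40 (-0.78) was lower. EGLN3 and PFKM lost the call without αMut1 replicate 7 (0.49 and 0.49), EGLN3 also without replicate 3 (0.49) and PFKM without replicate 1 (0.49).

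Over all libraries, the HIF targets NDRG1 and ANGPTL4 passed as higher than αWT in every HS-40 edited line. NDRG1 had a lowest of 10.2, a median of 13.9 and a highest of 16.8 CPM in αMut1 and 3.07, 3.13, 2.78 and 3.28 CPM in αMut2, against a lowest of 0.921, a median of 1.54 and a highest of 2.15 CPM in αWT (log2 fold change 3.15 ± 0.16 SE, edgeR adjusted p = 4.70e-19 in αMut1, and log2 fold change 1.02 ± 0.18 SE, edgeR adjusted p = 5.46e-05 in αMut2). ANGPTL4 had a lowest of 1.15, a median of 1.67 and a highest of 1.96 CPM in αMut1 and 1.02, 1.13, 0.789 and 0.895 CPM in αMut2, against a lowest of 0.144, a median of 0.339 and a highest of 0.668 CPM in αWT (log2 fold change 2.12 ± 0.32 SE, edgeR adjusted p = 9.70e-07 in αMut1, and log2 fold change 1.33 ± 0.37 SE, edgeR adjusted p = 0.00668 in αMut2). Neither mutant overlapped αWT for these 2 genes, whose counts are low. In all 4 αRes lines NDRG1 (2.62, 2.48, 2.65 and 2.61 in αRes1 to αRes4) and ANGPTL4 (1.80, 1.20, 3.21 and 2.28) were higher than in αWT as well, in log2. Within numbers 1 to 4 NDRG1 stood at 2.56 in αRes1 and 2.69 in αRes2 over αWT, and within 5 to 8 at 2.70 and 2.34. ANGPTL4 varied more between the sets, with 0.98 in αRes1 and 1.83 in αRes2 within numbers 1 to 4, and 2.16 and 0.82 within 5 to 8. Against αWT numbers 1 to 4 it stood at 3.84 in αRes3, 2.91 in αRes4 and 1.93 in αMut2. All 6 edited lines share the αWT libraries, and the 4 αRes lines were made from αMut1, so they are not independent of it. How many of all genes were higher in all 6 lines was not counted. The restored lines αRes1 and αRes2 overlapped αWT for ANGPTL4: αRes1 replicates 1 to 4 had 0.351, 0.615, 0.525 and 0.477 CPM and αRes2 replicates 3 and 6 had 0.237 and 0.609 CPM, all inside the αWT range. αRes2 replicate 3 also stood apart within its line with 6.88 CPM of EGLN1, against 18.5, 18.2 and 19.7 CPM in αRes2 replicates 1, 2 and 4.

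Over all libraries, the counts of members were near the background in the HS-40 mutants. In αMut1 against αWT 4 of 36 members rose and 2 fell, where 15.4% of all genes rose and 7.35% fell. In αMut2 against αWT 4 rose and 1 fell, where 6.62% rose and 9.43% fell. αMut2 exists as numbers 1 to 4, and against αWT numbers 1 to 4 alone 4 rose and 3 fell, where 7.55% of all genes rose and 6.17% fell. There P4HA2 (0.53) rose and EGLN3 (-0.60), BNIP3 (-0.57) and MXI1 (-0.54) fell in αMut2, of which none passed against all αWT libraries. In αMut1, BHLHE40 (0.96; 0.93 within numbers 1 to 4 and 0.92 within 5 to 8) and P4HA2 (0.77; 0.88 and 0.70) rose and HK2 (-0.77; -0.87 and -0.62) fell, each past the test within both sets, as were the rises of NDRG1 (3.69 and 2.63) and ANGPTL4 (2.92 and 1.44). BHLHE40 had a lowest of 155, a median of 266 and a highest of 285 CPM in αMut1 and 219.9, 228, 197 and 200.4 CPM in αMut2, against a lowest of 76.3, a median of 111 and a highest of 159.5 CPM in αWT. PKM had 992, 1199, 1155 and 1171 CPM in αMut2, against a lowest of 558, a median of 797 and a highest of 933 CPM in αWT. In αMut2, BHLHE40 (0.87; 0.52 within numbers 1 to 4) rose, and PKM (0.56) rose over all libraries but not past the limit within numbers 1 to 4 (0.30).

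Other members depended on the set of numbers. Within numbers 1 to 4, 4 members were higher and 9 lower in αMut1 than in αWT, where 21.6% of all genes were higher and 12.0% lower. Within numbers 5 to 8, 8 were higher and 2 lower, where 14.1% of all genes were higher and 10.6% lower. ENO2 had a log2 fold change of 0.85 within numbers 5 to 8, against -0.79 within 1 to 4, and PFKFB4 had 0.67 against -0.70. VEGFA passed as lower over all libraries in αMut1 (-0.53) and αMut2 (-0.63), but within numbers 1 to 4 it stood at -0.21 and -0.19 and did not pass. Within numbers 5 to 8 it passed as lower in αMut1 (-0.67, edgeR adjusted p = 3.80e-05). Its call also ended on leaving out 1 of 5 libraries in αMut1 (αMut1 replicates 1 and 4 and αWT replicates 5, 7 and 8, down to -0.39) and 1 of 4 in αMut2 (αMut2 replicates 2, 3 and 4 and αWT replicate 8, down to -0.4966, edgeR adjusted p up to 0.116).

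The restored lines were compared with their parent αMut1 to see whether inserting a G4 changed the set. In αRes1 against αMut1 1 of 36 members rose and 1 fell, where 0.400% of all genes rose and 2.56% fell. Within each set of numbers more members passed, some in opposite directions, which the count over both does not show. In numbers 1 to 4 alone, 11 members rose and 5 fell, where 9.01% of all genes rose and 20.5% fell, and in numbers 5 to 8 alone, 2 rose and 4 fell, where 12.4% of all genes rose and 9.62% fell. EGLN1, BNIP3, BHLHE40 and ANGPTL4 passed in both sets with opposite signs. In log2, EGLN1 had 1.60 within numbers 1 to 4 and -0.995 within 5 to 8, and BNIP3 had 1.14 within numbers 1 to 4 and -0.84 within 5 to 8. Conversely, BHLHE40 had -0.91 within numbers 1 to 4 and 1.42 within 5 to 8, and ANGPTL4 had -1.94 within numbers 1 to 4 and 0.72 within 5 to 8. Over the 3000 genes used above, αMut1 numbers 1 to 4 were nearer to αRes1 numbers 5 to 8 than to αMut1 numbers 5 to 7. Over both sets, HK2 rose (0.55) and NDRG1 fell (-0.53), both within numbers 1 to 4 (0.89 and -1.13) but not within 5 to 8 (0.09 and 0.07). Leaving out αRes1 replicate 3 ended the HK2 call (0.46), and NDRG1 ended without any 1 of αRes1 replicates 1, 2 and 4 or αMut1 replicates 1, 3 and 4 (down to -0.46). In αRes2 against αMut1 none rose and 5 fell, where 2.72% of all genes rose and 6.24% fell. At an unadjusted edgeR p under 0.05 18 members differed in either direction, and DESeq2 called 0 higher and 5 lower. ENO2 (-0.61) and ANKRD37 (-0.72) fell within both sets of numbers, while NDRG1 (-0.67), ANGPTL4 (-0.92) and BHLHE40 (-0.63) passed within numbers 1 to 4 only (-0.999, -1.09 and -1.30, against -0.29, -0.63 and 0.16 within 5 to 8). In αRes2, 3 members rose and 6 fell within numbers 1 to 4, where 6.43% of all genes rose and 10.9% fell, and within 5 to 8 none rose and 3 fell, where 6.03% of all genes rose and 7.62% fell. ANGPTL4 lost the call without any 1 of αRes2 replicates 2, 3, 6 and 7 or αMut1 replicates 1, 2, 3 and 4 (down to -0.87 in log2), and BHLHE40 without any 1 of αRes2 replicates 1, 2, 3, 4 and 8 or αMut1 replicates 1, 2, 3 and 4 (down to -0.56).

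In αRes3 against αMut1 3 of 36 members rose and 5 fell, where 9.69% of all genes rose and 10.9% fell. In αRes4 against αMut1 3 rose and 7 fell, where 18.5% rose and 14.0% fell. Both lines exist as numbers 1 to 4, and against αMut1 numbers 1 to 4 alone 8 rose and 5 fell in αRes3, where 14.9% of all genes rose and 16.6% fell, and 6 rose and 8 fell in αRes4, where 21.7% of all genes rose and 18.1% fell. Those 13 and 14 members stand beside the 16 of αRes1 within the same numbers. By their reads on pseudoautosomal genes αRes3 and αRes4 resembled numbers 5 to 8 of αRes1 and αRes2. Numbers 1 to 4 may therefore not be their matched set, and a comparison with numbers 5 to 8 alone was not run. SLC2A1 had 525, 543, 550.2 and 538 CPM in αRes3 and 522, 474, 549 and 582 CPM in αRes4, against a lowest of 237, a median of 255 and a highest of 325 CPM in αMut1 (0.97 and 0.95 in log2). Genes within 5 Mb of SLC2A1 had a median log2 fold change of 0.37 in αRes4. ERO1A had 38.4, 32.9, 33.1 and 36.1 CPM in αRes3 and 27.7, 29.4, 29.3 and 29.7 CPM in αRes4, against a lowest of 62.7, a median of 69.6 and a highest of 74.9 CPM in αMut1 (-0.95 and -1.22 in log2). PKM, pyruvate kinase, had 456, 438, 452 and 449 CPM in αRes3 and 299.8, 276, 369.6 and 363 CPM in αRes4, against a lowest of 618, a median of 679.9 and a highest of 742 CPM in αMut1 (-0.59 and -1.04 in log2). For the 3 genes neither αRes3 nor αRes4 overlapped αMut1.

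VEGFA (0.79 and 0.99) was also higher in both lines and PGK1 (-0.63 and -0.70) lower, relative to αMut1. SLC2A3 had 36.1 to 40.9 CPM in the 4 αRes3 libraries, against a lowest of 97.4, a median of 133 and a highest of 142 CPM in αMut1 (log2 fold change -1.66 ± 0.23 SE, edgeR adjusted p = 2.32e-07), and in αRes4 its log2 fold change was -0.17. LDHA (-0.62), PFKFB4 (-0.55), P4HA1 (-0.53) and NDRG1 (-0.54) fell and PDK1 (0.57) rose in αRes4. Against αMut1 numbers 1 to 4 alone, PFKFB4 in αRes4 (-0.43) and PFKM in αRes3 (-0.29) did not pass. PFKFB4 ended without αRes4 replicate 1 or 2 (-0.50 and -0.4987), NDRG1 without αMut1 replicate 4 (-0.49), and P4HA1 without αMut1 replicate 1 or 4 or αRes4 replicate 1 (down to -0.48). In αRes3, ANGPTL4 (1.09) ended without αRes3 replicate 1 (0.96, edgeR adjusted p = 0.0586) and PFKM (-0.52) without any 1 of αMut1 replicates 5, 6 and 7 or αRes3 replicate 4 (down to -0.47).

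Against αWT, the reference with an intact enhancer, members rose and fell in numbers of 6 and 1 in αRes1, 3 and 2 in αRes2, 6 and 9 in αRes3, and 4 and 8 in αRes4, of 36. The background was 13.0% higher and 7.41% lower in αRes1, 12.0% and 6.67% in αRes2, 20.1% and 18.9% in αRes3, and 23.3% and 17.2% in αRes4. P4HA2 was higher in all 4 lines over all libraries (log2 fold changes 0.61, 0.53, 0.87 and 0.80 in αRes1 to αRes4). Its call ended within a set in 2 of them, in αRes1 within numbers 1 to 4 (0.26, against 0.89 within 5 to 8) and in αRes2 within numbers 5 to 8 (0.498, just under the limit, against 0.58 within 1 to 4). SLC2A1 was higher in αRes3 and αRes4 (1.06 and 1.05) and BHLHE40 in αRes3 (1.41). SLC2A3 (-1.83) and BNIP3 (-0.90) were lower in αRes3, and EGLN3 (-0.74) in αRes4. In αRes3 and αRes4 PKM (-0.77 and -1.22), PGK1 (-0.68 and -0.75), LDHA (-0.54 and -0.78), HK2 (-0.97 and -1.24), GPI (-0.53 and -0.69) and ERO1A (-1.07 and -1.34) were lower. PKM and PGK1 were 2 of the 6 tested enzymes of the later steps of glycolysis, and GAPDH, PGAM1, ENO1 and ENO2 did not pass in either line. These lines are numbered 1 to 4, though that set may not be their match. Against αWT numbers 1 to 4 alone 7 members were higher and 13 lower in αRes3, where 26.0% and 21.5% of all genes were. In αRes4 5 were higher and 15 lower, where 30.3% and 22.7% of all genes were. ENO2 (-0.54 and -0.71) passed there in both lines and PGAM1 (-0.60) in αRes4.

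In αRes1, BHLHE40 had 429, 432, 428 and 403 CPM in numbers 5 to 8, against 139, 147, 175 and 135 CPM in numbers 1 to 4, and only numbers 1 to 4 overlapped the range of αWT. In log2 over αWT, BHLHE40 (1.30; 0.01 within numbers 1 to 4 and 2.34 within 5 to 8), ALDOC (0.51) and PFKL (0.52) were higher and VEGFA (-0.56) lower. ALDOC, PFKL and VEGFA passed within numbers 5 to 8, with 0.92 for ALDOC, 0.76 for PFKL and -1.38 for VEGFA. Within numbers 1 to 4 none of the 3 passed, ALDOC standing at 0.22, PFKL at 0.20 and VEGFA, with its direction turned, at 0.24. Leaving out 1 library mattered for 3 of these. ALDOC ended without any 1 of αRes1 replicates 3 and 7 or αWT replicates 5, 6, 7 and 8 (down to 0.44), PFKL without αRes1 replicates 5, 6, 7 and 8 or αWT replicates 1 and 4 (down to 0.43), and VEGFA without αRes1 replicates 6 and 8 or αWT replicate 8 (down to -0.43). For αRes1 the counts higher and lower were 2 and 0 within numbers 1 to 4, where 8.58% and 7.81% of all genes were, and 11 and 5 within 5 to 8, where 20.0% and 17.2% were. In αRes2 ENO2 (-0.74) and ANKRD37 (-0.89) were lower over all libraries. ENO2 turned with the set, at -1.56 within numbers 1 to 4 and 0.32 within 5 to 8, and ANKRD37 passed within 1 to 4 (-1.20) and not within 5 to 8 (-0.49). For αRes2 the counts higher and lower were 4 and 10 within numbers 1 to 4, where 18.2% and 8.63% of all genes were, and 6 and 1 within 5 to 8, where 13.7% and 12.9% were. In αRes3 LDHA ended without αWT replicate 4 (-0.4988 against the limit of 0.5), HK1 (0.52) without αWT replicate 8 (0.49) and PFKFB4 (-0.58) without αWT replicates 3 and 4 (down to -0.49).

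**Figure D5:**
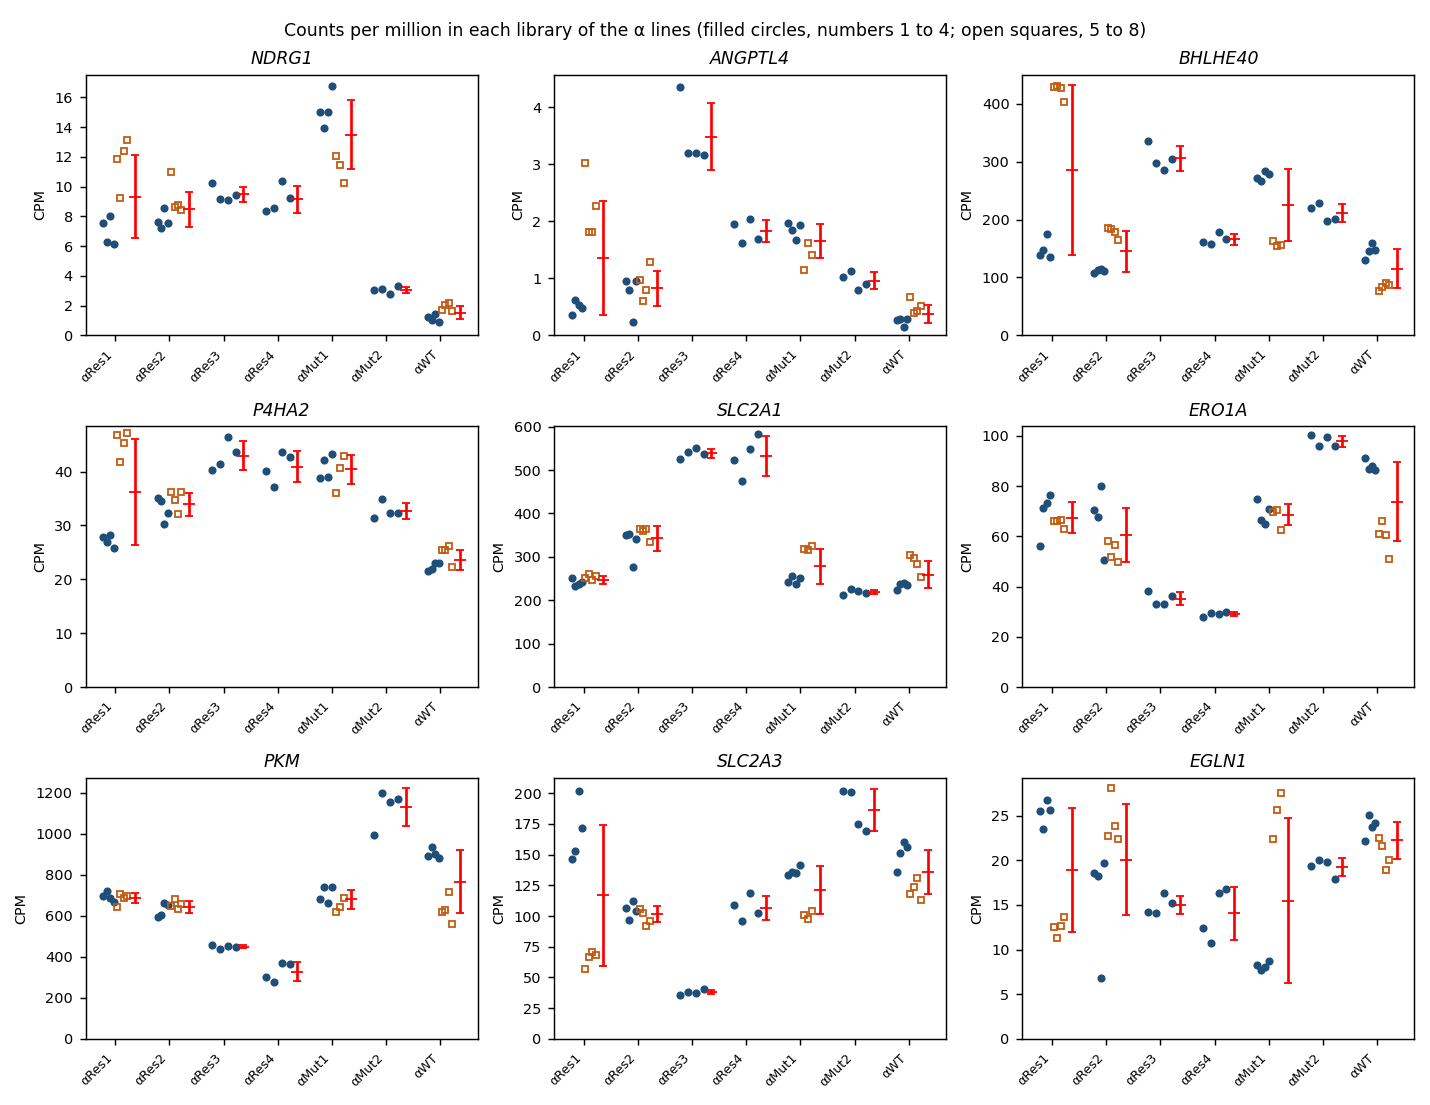
CPM (y axis, from 0) of 9 members in each library of αRes1 to αRes4, αMut1, αMut2 and αWT (circles stand for libraries numbered 1 to 4, squares for numbers 5 to 8, and red bars for the mean ± SD). NDRG1 and ANGPTL4 lie lower in αWT than in αMut1 and αMut2, SLC2A1 lies highest in αRes3 and αRes4, and the circles and squares of αRes1 separate for BHLHE40, P4HA2, SLC2A3 and EGLN1.

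Of the 38 members, GAPDH and PGAM1 (phosphoglycerate mutase) passed in none of the 19 comparisons in which they were tested, with log2 fold changes from -0.32 to 0.42 and from -0.45 to 0.47. Within a set of numbers GAPDH passed in none, but PGAM1 passed in αRes1 against αMut1 (0.55) and αRes4 against αWT (-0.60) within numbers 1 to 4, and in αWT numbers 5 to 8 against βWT (-0.57). ADM, with 0 to 27 counts a library, was not tested in any comparison, and CA9 was not tested within the α series, where it had 0 to 25 counts. Some members share reads with processed pseudogenes: these took 46.5% to 66.0% of the joint counts of LDHB, 33.7% to 50.8% for BNIP3, 31.5% to 36.5% for TPI1 and 18.5% to 22.0% for GAPDH. Shares were 11.6% to 27.1% for ALDOA, 12.9% to 20.2% for HK2, 13.6% to 17.1% for PGK1 and 7.97% to 13.0% for LDHA. They were 1.01% to 12.9% for PGAM1 and 4.95% to 9.76% for PKM. Levels of all these genes are therefore uncertain.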

How the data were processed

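RNA from 62 libraries of 12 K562 lines was poly(A)-selected, made into strand-marking libraries and sequenced as 51-base read pairs. The authors trimmed reads with cutadapt and aligned them to hg38 with bwa mem, which does not align across splice junctions. They deduplicated the mapped reads with Picard MarkDuplicates, used SAMtools 1.15.1, and deposited whole-number counts per gene from featureCounts on GENCODE 42. Bases lost at exon junctions lower counts most in genes of many short exons. The strand setting and the handling of multi-mapping reads are not given in the sources used here. Names and exon lengths came from GENCODE 44, and no column of another sample was used. Total counts per library ran from 4270215 to 48671570. In 16 libraries (all of αRes3 and αRes4, and numbers 5 to 8 of αRes1 and αRes2) reads were counted on 5 pseudoautosomal genes. The separately annotated Y copies were left out of this sum, and the other 46 libraries held at most 1 read. The alignment or counting may therefore have differed between these libraries. No member lies there.

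Counts were tested with edgeR 4.0.16 (R 4.3.3) by its quasi-likelihood F-test after TMM scaling, on genes averaging at least 10 counts per library, with Benjamini-Hochberg adjustment over all genes tested. The 43 α libraries were fitted together (18247 genes), once by line and once by line and set of numbers, as were the 19 β libraries (17535 genes), and αWT was compared with βWT in a fit of their 12 libraries (18196 genes). Genes were called where the adjusted p was under 0.05 and the log2 fold change lay beyond 0.5 in either direction. The script recovered most changes put into simulated counts. Those counts had 1 fixed spread between libraries and no split by library number, so they do not mirror the α series. Standard errors were the fold change divided by the root of F. The members and lists were chosen with earlier results of these data known. Named were, in each comparison, up to 6 members called in each direction with the largest changes, the members called in none, and, by library, the 6 with the widest range of line means in each series. Other members, and the genes named from lists, were chosen after their values were seen. Replicates are repeat samples of 1 clone, so p-values measure only the spread between these samples. Intervals cover counting error only.

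Alternatives were DESeq2 1.42.0, other scalings, no count filter, no fold limit, the compared lines alone, a term for the set of library numbers, each set alone, a replicate block, and leaving out each library. Library numbers were taken as pairs where every same-numbered pair correlated above 0.1. This held only for αRes2 and αMut1 (7 pairs, 0.117 to 0.255), and the labels name no pairs. Within the sets of numbers the same pairs stood at -0.209 to 0.121. For 0 of the 7 was the library of the same number the best match, so a pairing by number was not shown.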

Additional observations from a re-analysis of the deposited data

Results flagged for a closer look

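In 6 of 110 groups of 4 to 8 libraries examined, 1 library lay far from the rest by Dixon's test, and chance alone gives about 1 in 20. βWT replicate 1 had 455 CPM of SLC2A3, against 398 to 400.4 CPM in the other βWT libraries, and 7.75 CPM of CA9, against 6.75 to 6.86 CPM. WT-HS3Δ replicate 4 had 0.0325 CPM of CA9, which is 1 count, and the other WT-HS3Δ libraries had 0. βMut1 replicate 1 had 239 CPM of BNIP3L, against 284 to 290.2 CPM in the rest of its line. αRes3 replicate 1 had 4.36 CPM of ANGPTL4, against 3.17 to 3.20 CPM, and αRes2 replicate 5 had 11.02 CPM of NDRG1, against 7.24 to 8.75 CPM.

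By the interaction test, the change from βMut1 to βMut-HS3Δ differed from that from βWT to WT-HS3Δ for 14 members. Each edited line is 1 clone, so an effect of either edit cannot be told apart from the clone. On the log2 scale these were PFKFB4 (1.56), EGLN3 (1.35), SLC2A3 (1.23), HK2 (1.06), P4HA1 (0.93), BNIP3L (0.91), ANKRD37 (0.82), MXI1 (0.75), ENO2 (0.68), SLC2A1 (0.62), PDK1 (0.58), BNIP3 (0.51), VEGFA (-0.71) and BHLHE40 (-0.73).

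For 6 members every αMut1 library numbered 5 to 7 lay above every αWT library numbered 5 to 8, and every αMut1 library numbered 1 to 4 lay below every αWT library numbered 1 to 4. This difference was not tested. The share of all genes with the same pattern was not counted, so whether 6 members is many is not known. The log2 fold change of αMut1 over αWT within numbers 5 to 8 was 0.49 for PFKM, 0.86 for ALDOC, 0.67 for PFKFB4, 0.85 for ENO2, 0.24 for EGLN3 and 0.19 for BNIP3. Within numbers 1 to 4 it was -0.28 for PFKM, -0.39 for ALDOC, -0.70 for PFKFB4, -0.79 for ENO2, -0.99 for EGLN3 and -1.02 for BNIP3.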

How the results depend on the processing

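Of 212 calls of a member in a comparison, 163 held under every alternative run, 37 ended when some library was left out, and 4 changed sign. All 4 changed sign within 1 set of numbers: VEGFA in αRes1 against αWT (0.24 in log2 within 1 to 4), NDRG1 in αRes1 against αMut1 (0.070 within 5 to 8), BHLHE40 in αRes2 against αMut1 (0.16 within 5 to 8) and ENO2 in αRes2 against αWT (0.32 within 5 to 8). DESeq2 and relative log expression (RLE) scaling kept all 212 calls. Without the fold limit the members called numbered 14 in αMut1, 11 in αMut2, 11 in αRes1, 15 in αRes2 and 24 in αRes4 against αWT, 4 in αRes1, 12 in αRes2, 14 in αRes3 and 20 in αRes4 against αMut1, 24 between the sets of αWT, 19 between the sets of αMut1, 26 in βMut1 and 26 in βMut2 against βWT, and 16 in βMut-HS3Δ against WT-HS3Δ. Within numbers 1 to 4 they were 13 in αMut1, 2 in αRes1, 14 in αRes2 and 20 in αRes4 against αWT, and 16 in αRes1, 9 in αRes2 and 13 in αRes3 against αMut1. Within numbers 5 to 8 they were 10 in αMut1 and 16 in αRes1 against αWT, and 6 in αRes1 and 3 in αRes2 against αMut1. αRes1 against αMut1 gave 1 with library totals in place of TMM and 0 with the compared lines alone. αRes4 against αWT gave 20 without the count filter and 19 with a term for the set. Why these counts moved was not tested. Removing the fold limit can only add calls, among all genes as among the members. Except within the sets of numbers, the share of all genes called under each alternative is not given, here or below. These counts therefore show how the calls moved and not a property of the members. Leaving out 1 library gave 5 to 10 calls in αMut1 against αWT, 1 to 3 in αRes1 against αMut1 and 3 to 6 in αRes2 against αMut1.

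With the replicate block, the counts were 22 in WT-HS3Δ against βWT, 23 in βMut-HS3Δ against βMut1, 12 in βMut1 and 13 in βMut2 against βWT, 24 in αWT against βWT, 5 in αRes2 against αMut1 and 18 in αRes4 against αWT, and 9 calls of members ended. No paired analysis was possible between the sets of αWT or of αMut1 because these share no library number. Depth limits CA9, ADM, ANGPTL4 and NDRG1 most, and the clone cannot be told apart from the edit in any edited line.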
